A study of Mus musculus with 5 samples.

Results

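Receptor tyrosine kinases (RTKs) other than the IGF1 receptor were examined in sorted lung fibroblasts after deletion of Igf1r, to ask whether their transcripts differed when 1 growth factor receptor was reduced. The 10 genes Egfr, Erbb2, Erbb3, Met, Axl, Kit, Ntrk2, Ddr1, Ddr2 and Ror1 were chosen by name, and all 10 were found among the 23478 gene symbols of the count table. All 10 passed the filter on low counts. RTKs span the plasma membrane once. Binding of a ligand brings receptor chains together, the kinase domains phosphorylate each other on tyrosine, and adaptor proteins that dock on these tyrosines lead to PI3K/AKT and to RAS/ERK, the routes that IGF1R also uses. In the lung, ERBB receptors and MET are best known from epithelium, KIT from mast cells and capillary endothelium, and DDR2, AXL and ROR1 from mesenchyme.

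The cells were GFP-sorted from lungs on P6, after 100 µg of tamoxifen per pup on P0 and again on P1. The 2 Control libraries came from Igf1r Flox/Wildtype mice and the 3 Mutant libraries from Igf1r Flox/Flox mice. Every mouse carried Gli1creER and the Rosa-EGFP reporter and received tamoxifen, so Control cells could lose 1 copy of Igf1r and Mutant cells both copies. Cre was driven by Gli1, so GFP marks cells in which Gli1 was active at tamoxifen treatment, and their descendants, and not all lung fibroblasts. How many pups stand behind a library is not given in the sources used here, so p-values measure the spread between these libraries.

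Each library held 35116766 to 37597857 counted reads. Expression is given as CPM, counts scaled by library size with a correction for composition, and 1 CPM stood for 34.7 to 39.8 counts. The lowest count of any of the 10 genes in a library was 42. Igf1r itself was at 324 CPM in both Control libraries and at 139.7, 177 and 194 CPM in Mutant replicates 1, 2 and 3, a log2 fold change of −0.93 (95% confidence interval −1.26 to −0.59). Counts cover the whole gene, so reads from exons outside a deleted segment remain in these values. Fibroblast markers dominated, with 8 genes summing to 24321 and 26187 CPM in Control and 25671, 19502 and 22495.5 CPM in Mutant libraries. Of them, 7 were lower and 1 higher in Mutant, against 47.7% and 52.3% of all genes tested. The 8 matrix fibroblast and lipofibroblast markers summed to 10276 and 9933 against 9139.5, 8252 and 8975 CPM, without overlap, with 7 lower and 1 higher. The 11 myofibroblast markers summed to 21450 and 15334 against 16673, 13901 and 14947 CPM, with 5 lower and 6 higher. Markers of other cells were present at lower sums. In Control and Mutant libraries, 18 epithelial markers summed to 1181 to 1248 and 577 to 1280 CPM, 11 endothelial markers to 618 to 636 and 297 to 869 CPM, 12 hematopoietic markers to 459.6 to 677 and 227 to 537 CPM and 6 mesothelial markers to 444 to 449.8 and 341 to 454 CPM. The 6 smooth muscle markers, of which some are shared with myofibroblasts, summed to 987 and 1533 CPM in Control libraries. In Mutant libraries they summed to 1653, 2353 and 1919 CPM. All 6 were higher in Mutant, against 52.3% of all genes tested. Of the 6, 4 were so at an unadjusted p under 0.05 with edgeR, against 5.65% of all genes. The part of these cell types in the values of the 10 genes was not tested. None of these markers was at 0 in all libraries. In such bulk samples fewer cells of a type and less RNA per cell cannot be told apart.

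The 10 genes spanned a wide range of levels. Levels of different genes are compared per length, as CPM per kilobase of exon, with exon lengths from the GENCODE M21 annotation of mm10. Axl had the highest level at 35.7 per kilobase (mean of the group means, lowest library 29.4, highest 39.3). Ddr2 followed at 31.4, with library values that overlapped those of Axl. Ddr1 came next at 20.6, below every library of Ddr2. Erbb2 and Ror1 lay at 9.39 and 8.34, with overlapping libraries. Met was at 5.39, below all libraries of Ror1. Ntrk2, Egfr and Kit lay at 3.01, 2.68 and 1.93, where the libraries of neighbours overlapped. Erbb3 was the lowest at 0.502, below all libraries of Kit. With the length of the longest transcript in place of all annotated exons, Ntrk2 moved to 6.64, above Met at 6.08, and Kit moved to 3.28, above Egfr at 2.97.

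Among 58 RTK genes with a level, 41 exceeded 1 per kilobase, and 9 of the 10 genes were among them. Ptk7, Fgfr3, Fgfr4, Pdgfra and Fgfr1 stood highest in Control libraries, and Axl came next at place 6. Igf1r stood at place 16 in Control libraries with 19.3 per kilobase and at place 17 in Mutant libraries with 10.1. In Control libraries 3 of the 10 genes (Axl, Ddr2 and Ddr1) lay above Igf1r. In Mutant libraries 4 did, with Erbb2 added at 10.3 against 8.498 per kilobase in Control libraries. The Mutant values of Erbb2 (9.97 to 10.7) lay within those of Igf1r (8.32 to 11.6). The places of Ddr1 and Erbb2 beside Igf1r also depend on the length used. With the longest transcript, Igf1r moved from 14.7 to 21.6 per kilobase (mean of the group means). Ddr1 moved from 20.6 to 25.3 and Erbb2 from 9.39 to 9.76. With that length the mean of Igf1r lay above Ddr1 in Control libraries and above Erbb2 in Mutant libraries. The counts of 3 and 4 genes above Igf1r hold only for the length of all annotated exons.

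**Figure D1:**
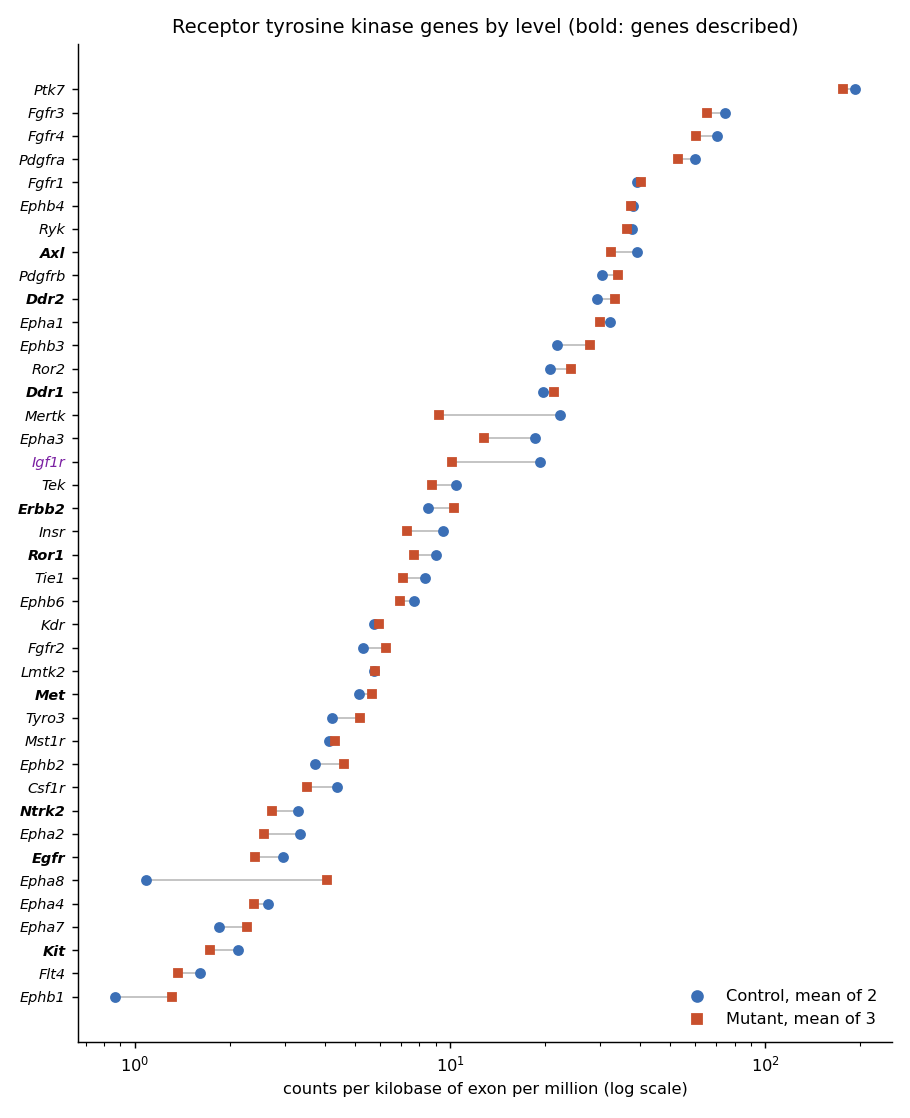
Level of 40 of the 41 RTK genes with a mean above 1 CPM per kilobase of exon, on a log axis, with the mean of the 2 Control libraries as blue circles and of the 3 Mutant libraries as red squares. The 9 described genes above this level are in bold, from Axl and Ddr2 near the top to Kit near the bottom, and Igf1r, in purple, lies at 19.3 in Control and 10.1 in Mutant libraries.

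Summed over the 10 genes, expression lay close together in both genotypes, though Axl and Ddr2, the largest parts of the sum, differed in direction. Axl had means of 197 CPM in Control and 162 CPM in Mutant libraries, and Ddr2 of 271 and 310 CPM. Ddr2 overlapped between genotypes, and its log2 fold change was 0.02 without Control replicate 1. The sum was 790 and 846 CPM in Control replicates 1 and 2 and 813, 820 and 806 CPM in the 3 Mutant libraries, which all lay between the Control values. Per kilobase the sum was 120 ± 4.58 (SD, n = 2) in Control and 118 ± 0.846 (SD, n = 3) in Mutant libraries. Over the same libraries Igf1r was lower by 9.14 per kilobase. Of the 10 genes, 6 had lower and 4 had higher levels in Mutant libraries, where 47.7% and 52.3% of all 15298 genes tested did so. Their median log2 fold change was −0.26 against 0.015 over all genes. It moved to −0.069 without Control replicate 1, −0.15 without Mutant replicate 1 and −0.094 without Mutant replicate 3.

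None of the 10 genes differed between genotypes at an adjusted p-value under 0.05. Their adjusted p-values ran from 0.357 to 0.816 in edgeR's quasi-likelihood test (Benjamini-Hochberg, all genes tested), and 0% of all genes passed. The smallest adjusted p of any gene was 0.306 in edgeR. DESeq2's Wald test gave an adjusted p to 9 of the 10, the smallest 0.225. It called 1.7% of the 11735 genes that it gave an adjusted p. At an unadjusted p under 0.05 with edgeR, 1 of the 10 was lower (Axl) against 6.75% of all genes, and 1 was higher (Erbb2) against 5.65%, together 2 of the 10 against 12.4%. Over all genes this made 1032 lower and 865 higher, and with library totals in place of composition factors 744 lower and 1343 higher. The genotypes did not overlap for 4 of the 10 genes, against 31% of all genes. These were lower for Axl and Erbb3, where 14.9% of all genes were so, and higher for Erbb2 and Ddr1, where 16% were. A criterion after the study's methods (absolute log2 fold change of at least 0.5, unadjusted p under 0.05 and over 1 CPM) held for 0 of the 10 and for 5.83% of all genes. Without Control replicate 1 the unadjusted calls over all genes were 252 lower and 181 higher, and 0 of the 10 were among them. Without Mutant replicate 1 they were 1760 lower and 1423 higher, with 2 of the 10 lower (Axl and Ntrk2) and 2 higher (Erbb2 and Met).

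**Figure D2:**
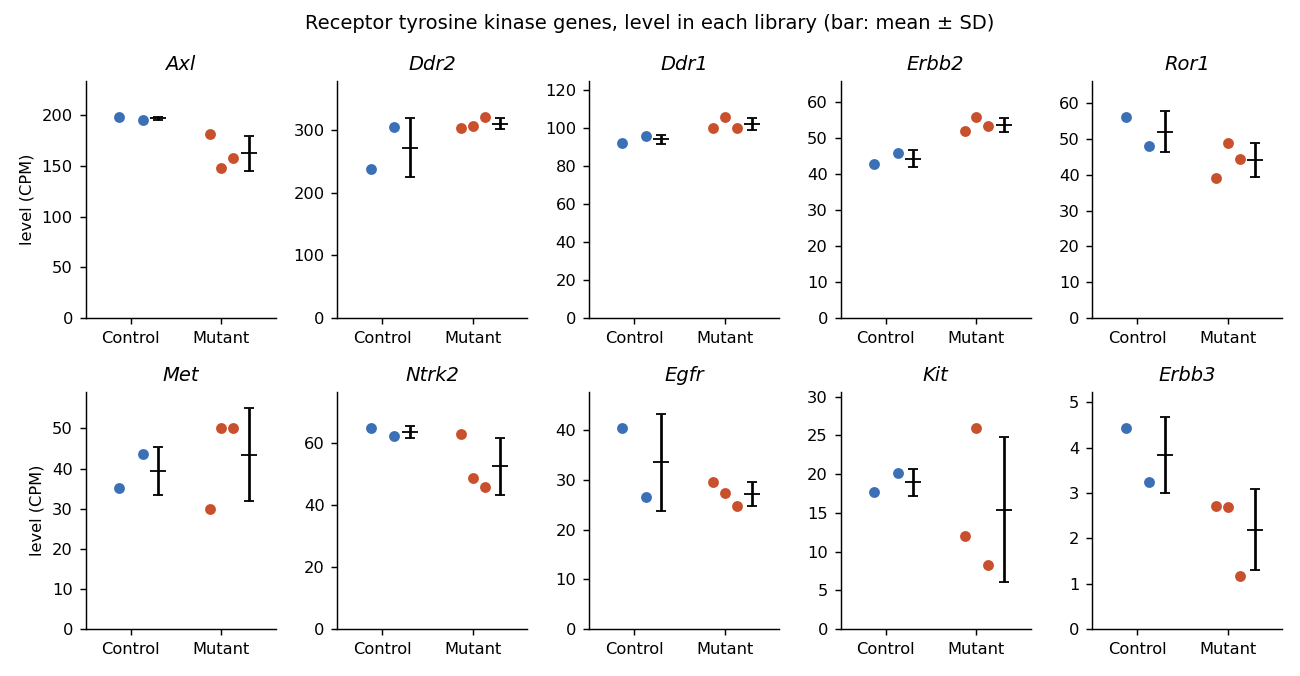
CPM of each of the 10 genes in the 2 Control (blue) and 3 Mutant (red) libraries, with the group mean ± SD as black bars and every axis starting at 0. The groups are apart for Axl, Erbb3, Erbb2 and Ddr1 and overlap for the other 6.

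Of the 3 ERBB receptor genes, Erbb2 had a log2 fold change above 0, and Egfr and Erbb3 had values below 0. None of the 3 had an adjusted p under 0.05 with edgeR. Erbb2, on chromosome 11 of mm10 from 98412470 to 98437716, encodes the member without a known soluble ligand, which pairs with the other ERBB receptors. Erbb2 was at 42.7 and 45.9 CPM in Control and at 51.9, 55.7 and 53.2 CPM in Mutant replicates 1, 2 and 3. All 3 Mutant values were above both Control values, and the difference was larger than the SD within either group. Erbb2 gave a log2 fold change of 0.28 (standard error 0.096, 95% interval 0.051 to 0.50, adjusted p = 0.357 from the same edgeR test), a 1.21-fold difference. The exact two-sided permutation test gave p = 0.1, the smallest that the 10 splits of these libraries allow. With each library left out the log2 fold change of Erbb2 stayed between 0.22 and 0.32.

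Egfr, on chromosome 11 of mm10 from 16752203 to 16918158, encodes the receptor of EGF, TGFα, HB-EGF and amphiregulin. It had 40.5 and 26.6 CPM in Control replicates 1 and 2 and 29.5, 27.3 and 24.7 CPM in Mutant libraries. Control replicate 1 stood above the other 4 libraries, and Control replicate 2 lay within the Mutant range. For Egfr the log2 fold change of −0.30 (95% interval −0.73 to 0.12, adjusted p = 0.505 from the same edgeR test) was 0.026 with Control replicate 1 left out and −0.59 with Control replicate 2 left out.

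Erbb3, on chromosome 10 of mm10 from 128567523 to 128589652 (minus strand), encodes the neuregulin receptor with an impaired kinase that couples strongly to PI3K. It was barely expressed, with 4.44 and 3.25 CPM in Control and 2.72, 2.69 and 1.17 CPM in Mutant libraries (154, 119, 96, 107 and 42 counts). All Mutant values were below both Control values, with Mutant replicate 3 well below the others. Erbb3 had a log2 fold change of −0.81, with a wide 95% interval of −1.74 to 0.13 (adjusted p = 0.443 from the same edgeR test), and −0.51 without Mutant replicate 3. That library also had the lowest epithelial marker sum, with 1248 and 1181 CPM in Control and 857, 1280 and 577 CPM in Mutant libraries. The endothelial (297 CPM) and hematopoietic (227 CPM) sums were lowest there too, and the mesothelial sum (454 CPM) was highest there. All 18 epithelial markers had a mean above 1 CPM in a genotype. Of the 18, 16 were lower and 2 higher in Mutant, against 47.7% and 52.3% of all genes. At an unadjusted p under 0.05 with edgeR 2 of the 18 were lower, against 6.75% of all genes. Epcam, the epithelial adhesion molecule, was at 4.35 and 5.102 against 3.83, 4.401 and 1.92 CPM, and Sftpc, the surfactant protein gene of type 2 cells, at 530.3 and 543 against 379.8, 552 and 233 CPM. Of the 6 Schwann cell markers, 3 stayed under 1 CPM in all libraries, among them Sox10, which defines these cells. Their sum was 7.08 and 8.38 against 4.704, 9.18 and 11.5 CPM, highest in Mutant replicate 3. The part of either cell type in the Erbb3 values was not tested.

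ERBB ligands were low in these cells. Of 11 ligand genes, 9 passed the filter, 6 had a mean above 1 CPM in a genotype, and 0 had an adjusted p under 0.05 with edgeR. Their median log2 fold change of 0.094 turned to −0.082, −0.033 and −0.077 without Control replicate 1, Mutant replicate 2 and Mutant replicate 3, and to −0.036 with a stricter filter. Hbegf, the heparin-binding ligand of EGFR, was the highest, at 9.94 and 10.4 CPM in Control and 12.2, 10.4 and 11.05 CPM in Mutant libraries. Nrg2, a neuregulin, was the only one of the 9 with an unadjusted p under 0.05 (0.0272 with edgeR), against 12.4% of all genes. It had 2.71 and 3.602 CPM in Control and 4.25, 5.21 and 7.71 CPM in Mutant libraries (log2 fold change 0.86, 0.58 without Mutant replicate 3). Areg, the gene of amphiregulin, was lower in all Mutant libraries at 1.41 and 1.12 against 0.8501, 0.453 and 0.612 CPM, with an unadjusted p of 0.0559 from edgeR. Tgfa (0.094), Ereg (−0.15) and Nrg1 (0.35) had log2 fold changes below their standard errors of 0.34, 0.26 and 0.38. Erbb4, the other receptor of this family, did not pass the filter.

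Both collagen receptors were among the 3 most expressed of the 10 genes. They respond to triple-helical collagen, and DDR2 is the form typical of mesenchymal cells. Ddr2, on chromosome 1 of mm10 from 169972307 to 170110762 (minus strand), had 238 and 305 CPM in Control replicates 1 and 2 and 303, 307 and 320.1 CPM in Mutant libraries. Control replicate 1 alone was low, and the other 4 libraries lay close together. For Ddr2 the log2 fold change of 0.19 (95% interval −0.11 to 0.49, adjusted p = 0.542 from the same edgeR test) was 0.02 with Control replicate 1 left out and 0.37 with Control replicate 2 left out.

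Ddr1, on chromosome 17 of mm10 from 35681567 to 35704621 (minus strand), had 92.4 and 95.99 CPM in Control and 100.3, 106 and 100.4 CPM in Mutant libraries. It varied least of the 10 over the 5 libraries, and all 3 Mutant values were just above both Control values. Ddr1 gave a log2 fold change of 0.12 (standard error 0.09, 95% interval −0.094 to 0.33, adjusted p = 0.605 from the same edgeR test), with an exact two-sided permutation p of 0.1, the smallest possible. Gm4577, on the opposite strand, overlaps 4.52% of the exon length of Ddr1. No source states that strand was used in counting, so a small part of these reads is uncertain. DDR1 is known from epithelium, whose markers summed to 1248 and 1181 CPM in Control and 857, 1280 and 577 CPM in Mutant libraries, and their part in the Ddr1 values was not tested.

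Among 9 collagen genes whose products bind these receptors, 8 were lower and 1 higher in Mutant, against 47.7% and 52.3% of all genes. The median log2 fold change of the 9 was −0.13, with −0.22 without Mutant replicate 1 and −0.052 without Mutant replicate 3. None of the 9 had an unadjusted or adjusted p under 0.05 with edgeR. Col1a1 was at 5968 and 6768 CPM in Control and 7114, 5212 and 5792 CPM in Mutant libraries, and Col3a1 at 8879 and 9797 against 9204, 6985 and 8388 CPM. The groups overlapped for both. Col5a2, at 809 and 769.8 against 764, 613 and 679.7 CPM, was the only one of the 9 without overlap. Log2 fold changes were −0.13 for Col1a2, −0.08 for Col5a1, −0.16 for Col4a1 and −0.086 for Col4a2. Col2a1 (−0.42) and Col10a1 (0.80) had larger values at low levels, with standard errors of 0.60 and 0.44, and Col2a1 was at 0.54 without Control replicate 1.

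**Figure D3:**
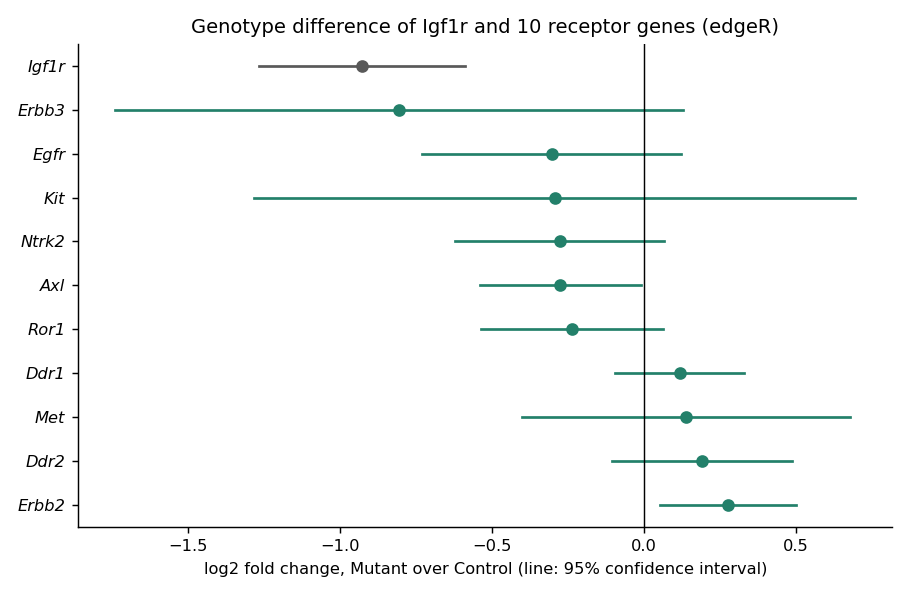
Log2 fold change, Mutant over Control, of Igf1r (gray) and the 10 receptor genes (green), with 95% confidence intervals from edgeR's quasi-likelihood fit as lines. The intervals of Igf1r and Axl lie below 0 and that of Erbb2 above it, and those of Kit (−1.28 to 0.70) and Erbb3 (−1.74 to 0.13) are the widest.

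Axl, on chromosome 7 of mm10 from 25757273 to 25788705 (minus strand), encodes a receptor of the TAM family, whose ligands GAS6 and protein S bridge it to exposed phosphatidylserine. It had 198 and 195 CPM in Control and 182, 148 and 158 CPM in Mutant replicates 1, 2 and 3. The Control values were nearly equal and all 3 Mutant values were below them. Axl gave a log2 fold change of −0.28 (standard error 0.11, 95% interval −0.54 to −0.0099, adjusted p = 0.398 from the same edgeR test), and leaving out each library kept it between −0.37 and −0.22. With library totals its unadjusted p was 0.0752 (edgeR), against 0.0439 with composition factors. The exact two-sided permutation p was 0.2.

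Among the relatives of the 10 genes, 8 of 9 passed the filter, with a median log2 fold change of −0.12. At an unadjusted p under 0.05 with edgeR, 1 was lower (Mertk) and 0 higher, against 6.75% and 5.65% of all genes. Mertk, a TAM receptor for the clearance of dying cells, had 126 and 67.6 CPM in Control replicates 1 and 2 and 55.8, 30.3 and 34.04 CPM in Mutant libraries. All Mutant values were below both Control values, and the Control values were far apart. For Mertk the log2 fold change of −1.27 (standard error 0.32, unadjusted p = 0.00494, adjusted p = 0.354, edgeR) was −0.76 without Control replicate 1. DESeq2 gave Mertk an adjusted p of 0.0115, so its call depends on the tool. Tyro3, the other TAM receptor, was higher, at 24.3 and 28.2 against 29.9, 30.6 and 35.5 CPM, with an unadjusted p of 0.0528 from edgeR.

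The 8 ligand genes of AXL, MET, KIT, TrkB and ROR1 all passed the filter, with a median log2 fold change of 0.24. At an unadjusted p under 0.05 with edgeR, 1 was lower and 2 higher, against 6.75% and 5.65% of all genes. None of the 8 had an adjusted p under 0.05 with edgeR. Gas6 was abundant, at 324 and 327 CPM in Control and 317, 296 and 318 CPM in Mutant libraries (log2 fold change −0.069). Pros1, the gene of protein S, was lower in every Mutant library, at 521 and 415 against 397, 319 and 335 CPM (log2 fold change −0.42, unadjusted p = 0.0222, edgeR), and −0.25 without Control replicate 1. AXL and MERTK are also known from macrophages. All 12 hematopoietic markers had lower levels in Mutant libraries, against 47.7% of all genes. Of the 12, 3 were so at an unadjusted p under 0.05 with edgeR, against 6.75% of all genes. The sum of the 12 was 677 and 459.6 CPM in Control and 537, 361 and 227 CPM in Mutant libraries. Lyz2, the lysozyme gene of macrophages, was at 379 and 266 against 317, 254 and 142 CPM. The part of these cells in the Axl and Mertk values was not tested.

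Met, on chromosome 6 of mm10 from 17463800 to 17573980, encodes the receptor of hepatocyte growth factor. It had 35.2 and 43.7 CPM in Control and 30.01, 50.1 and 50.04 CPM in Mutant replicates 1, 2 and 3, so the Mutant libraries lay on both sides of the Control libraries. For Met the log2 fold change of 0.14 (95% interval −0.40 to 0.68, adjusted p = 0.816 from the same edgeR test) was −0.014 without Control replicate 1 and 0.34 without Mutant replicate 1. The ligand gene Hgf was at 14.5 and 18.8 against 16.9, 19.7 and 19.9 CPM. Mst1r, the nearest relative of Met, had 20.9 and 20.4 against 20.1, 19.9 and 24.7 CPM. Both overlapped between genotypes.

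Kit, on chromosome 5 of mm10 from 75574916 to 75656722, encodes the receptor of stem cell factor. It had 17.7 and 20.1 CPM in Control and 11.96, 25.98 and 8.32 CPM in Mutant replicates 1, 2 and 3. Both Control values lay inside the Mutant range. For Kit the log2 fold change of −0.29 (95% interval −1.28 to 0.70, adjusted p = 0.786 from the same edgeR test) was 0.0014 without Mutant replicate 3 and −0.91 without Mutant replicate 2. Beside Kit, the 11 endothelial markers summed to 636 and 618 CPM in Control and 587, 869 and 297 CPM in Mutant libraries. Kit and this sum were both highest in Mutant replicate 2 and lowest in Mutant replicate 3. The 18 epithelial markers had the same extremes, at 1280 and 577 CPM. The hematopoietic and mesothelial sums did not. The 7 mast cell markers summed to 30.4 and 18.1 against 27.9, 6.31 and 7.097 CPM, with the lowest sum in Mutant replicate 2, and 2 of them were under 1 CPM in all libraries. The part of any of these cell types in the Kit values was not tested. Kitl, the gene of stem cell factor, was at 300.3 and 319 against 297, 255 and 269 CPM, without overlap (log2 fold change −0.18, unadjusted p = 0.135, edgeR). Of the relatives of Kit, Csf1r overlapped between genotypes (33.1 and 17.4 against 24.99, 21.8 and 14.2 CPM) and Flt3 stayed under 1 CPM.

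**Figure D4:**
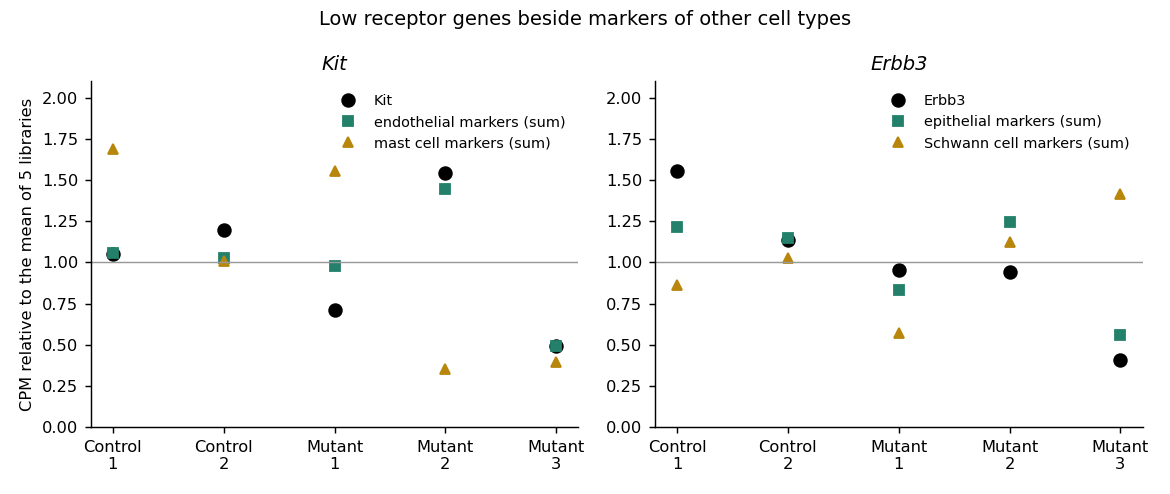
CPM of Kit (left) and Erbb3 (right) in each library relative to the mean of the 5 libraries (black circles), beside the summed CPM of the marker lists of cells known to express them (green squares and brown triangles), scaled the same way. Kit and the endothelial sum are both highest in Mutant replicate 2 and lowest in replicate 3, as is the epithelial sum. Erbb3 is also lowest in replicate 3. The lists shown were picked after the values were seen.

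Ntrk2, on chromosome 13 of mm10 from 58806569 to 59133970, encodes TrkB, the receptor of BDNF and neurotrophin-4. It had 65 and 62.3 CPM in Control and 62.99, 48.8 and 45.8 CPM in Mutant replicates 1, 2 and 3. Mutant replicate 1 lay between the Control values and the other 2 lay lower. For Ntrk2 the log2 fold change of −0.28 (95% interval −0.62 to 0.067, adjusted p = 0.466 from the same edgeR test) was −0.43 without Mutant replicate 1. Its 10 annotated transcripts are not told apart by counts per gene, and TrkB is known to have forms without a kinase domain. Of its ligands, Bdnf was at 11.6 and 13.6 against 10.9, 21.5 and 15.5 CPM, and Ntf5, the gene of neurotrophin-4, at 1.58 and 1.31 against 1.36, 1.96 and 2.004 CPM. Ntf3, whose main receptor is encoded by Ntrk3, was at 2.71 and 4.61 against 7.37, 6.39 and 6.62 CPM, higher in all Mutant libraries. For Ntf3 the log2 fold change of 0.89 (unadjusted p = 0.0115, adjusted p = 0.354, edgeR) was 0.55 without Control replicate 1. Ntrk3 itself was at 19.7 and 26.9 against 23.2, 32.01 and 31.5 CPM, with overlap.

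Ror1, on chromosome 4 of mm10 from 100095791 to 100444765, encodes a receptor of noncanonical Wnt signaling that binds WNT5A. It had 56.04 and 47.9 CPM in Control and 39.2, 48.8 and 44.4 CPM in Mutant replicates 1, 2 and 3. Control replicate 1 was the highest, and Control replicate 2 lay below Mutant replicate 2. Ror1 had a log2 fold change of −0.24 (95% interval −0.53 to 0.064, adjusted p = 0.473 from the same edgeR test) and −0.12 without Control replicate 1. Its relative Ror2 was more abundant and pointed the other way, with 81.3 and 94.9 CPM in Control and 104, 103 and 101 CPM in Mutant libraries (log2 fold change 0.22, unadjusted p = 0.0704, edgeR). Wnt5a was at 360 and 401 against 426, 545 and 653 CPM (a log2 fold change of 0.51, standard error 0.18, unadjusted p = 0.0259, adjusted p = 0.364, edgeR). All 3 Mutant values were above both Control values for Ror2 and Wnt5a. Without Mutant replicate 3 the log2 fold change of Wnt5a was 0.35.

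**Figure D5:**
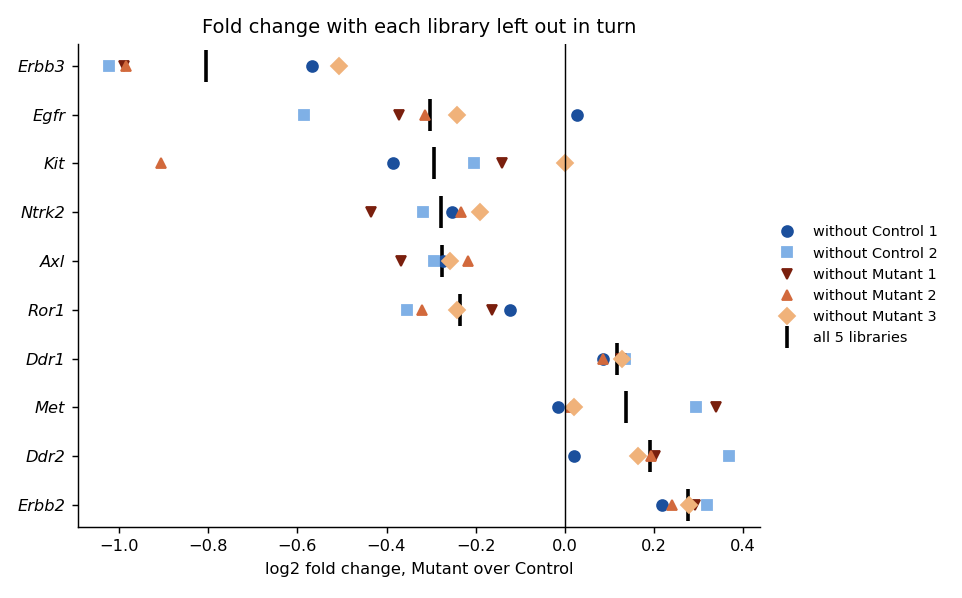
Log2 fold change, Mutant over Control, of each of the 10 genes in all 5 libraries (black bar) and with each library left out (colored symbols). Erbb2, Ddr1 and Ddr2 stay above 0 and Erbb3, Ntrk2, Axl and Ror1 below it in all 5 fits, and Egfr, Met and Kit cross 0.

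The upper ends of the 95% intervals are given here as fold differences, each for 1 gene without adjustment for the number of genes. They rest on 2 Control and 3 Mutant libraries, and single libraries moved the fold changes. The log2 fold change of Egfr was 0.026 without Control replicate 1, and that of Met was 0.34 without Mutant replicate 1. The upper bound was highest for Kit (1.62-fold) and Met (1.6-fold), then Erbb2 (1.41-fold) and Ddr2 (1.403-fold). For Ddr1 it was 1.26-fold, and for Axl, Ror1, Ntrk2, Egfr and Erbb3 it lay between 0.993-fold and 1.09-fold.

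Of 47 other RTK genes, the relatives included, 40 passed the filter, with a median log2 fold change of −0.083. At an unadjusted p under 0.05 with edgeR, 3 were lower and 4 higher, against 6.75% and 5.65% of all genes. None of the 40 had an adjusted p under 0.05 with edgeR. The 3 lower genes were Mertk, Insr and Epha3. Insr, the insulin receptor gene and closest relative of Igf1r, was at 144 and 117 CPM in Control and 96.6, 100.4 and 104 CPM in Mutant libraries (log2 fold change −0.38, unadjusted p = 0.0117, edgeR), and its log2 fold change was −0.23 without Control replicate 1. Epha3, an ephrin receptor, was at 185 and 138 against 137, 97.6 and 98.7 CPM (log2 fold change −0.54, −0.32 without Control replicate 1). The 4 higher genes were Ephb3, Fgfr2, Lmtk3 and Epha8. Ephb3, an ephrin receptor, was at 133 and 157 against 161, 199 and 193 CPM, and Fgfr2, an FGF receptor, at 52.8 and 56.5 against 60.2, 65.2 and 68.9 CPM. Epha8 was at 1.699 and 8.51 against 7.31, 22.3 and 27.9 CPM, with overlap, and Lmtk3 at 2.36 and 2.02 against 2.58, 4.65 and 3.87 CPM.

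Downstream of the receptors, 18 genes of adaptors and associated signaling proteins (the adaptor list) all passed the filter, including Grb2, Shc1, Gab1 and Sos1. Of the 18, 0 had an unadjusted p under 0.05 with edgeR, against 12.4% of all genes, and 0 an adjusted p under 0.05. The median log2 fold change of the 18 was −0.034, and 0.043 with library totals. Of 16 genes that restrain these receptors, 2 were lower and 1 higher at an unadjusted p under 0.05 (edgeR). Over all genes these shares were 6.75% and 5.65%. The median log2 fold change of the 16 was −0.026, and 0.046 with library totals. Errfi1, the feedback inhibitor of EGFR and ERBB2 also called MIG6, had 335 and 178 CPM in Control replicates 1 and 2 and 153, 94.6 and 93.6 CPM in Mutant libraries. All Mutant values were below both Control values, which themselves differed widely. For Errfi1 the log2 fold change of −1.17 (standard error 0.30, unadjusted p = 0.00571, adjusted p = 0.354, edgeR) was −0.65 without Control replicate 1. Ptprk, a receptor phosphatase, was at 112 and 113 against 90.8, 92.97 and 88.8 CPM, with tight groups (log2 fold change −0.30, standard error 0.087, unadjusted p = 0.00974, edgeR). Socs5, a suppressor of cytokine signaling that also acts on EGFR, was at 45.9 and 51.6 against 57.5, 57.3 and 58 CPM. Of 14 proteases and inhibitors that act on ligands or receptors, 1 was lower at an unadjusted p under 0.05 with edgeR and 0 higher (median −0.034). This was Spint2, which inhibits activation of hepatocyte growth factor, at 47.7 and 37.1 against 30.1, 35.3 and 28.1 CPM (log2 fold change −0.44, −0.26 without Control replicate 1).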

How the data were processed

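Per the labels, RNA of sorted cells went through an Ultra library kit and was sequenced as read pairs on an Illumina HiSeq. The authors deposited 1 table of raw counts per gene, without normalization, from reads trimmed with Trim Galore, aligned to mm10 with Bowtie2 and counted with Bioconductor's GenomicAlignments. Cufflinks and DESeq are also named in the submitters' processing notes. Alignment settings, annotation and use of strand are not given in the sources used here. Bowtie2 does not splice, so reads over exon junctions may be missing. Groups and replicate numbers came from the sample titles.

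Of 23478 genes, 4833 had 0 counts everywhere, and 15298 passed edgeR's filterByExpr. The test was the two-sided quasi-likelihood F test of edgeR 4.0.16 (with limma 3.58.1 in R 4.3.3), with TMM factors of 0.961 to 1.06 and genotype alone in the model. P-values were adjusted by Benjamini-Hochberg over the genes tested. Standard errors are the log2 fold change over the square root of F. CPM over 1, in 50% or more of a genotype's libraries, stood in for the FPKM of the study's criterion. Simulated counts served to test the code. DESeq2 1.42.0 and other settings were alternatives. Averaged over genes, the squared difference between replicates was 20.8 to 45.3 times that of counting noise alone (chi-square per gene). For genes with few counts such as Erbb3 counting noise is a larger part of the spread. No batch is labelled. Positions, exon lengths and overlaps came from GENCODE M21. Of the 10 genes, 4 shared 31-base sequences with transcripts of other genes, at most 3.85% of theirs (Ddr1).

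The 10 genes and the lists were chosen with earlier results of these data known. The text names all 10 genes, Igf1r, their relatives and ligands above 1 CPM or with an unadjusted p under 0.05, and of the other lists up to 8 genes with an unadjusted p under 0.05. Single markers, the highest RTKs, examples from the adaptor list and genes below these limits were named after their values were seen. For 1 further relative, counted in its lists, values are not reported here.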

Additional observations from a re-analysis of the deposited data

How the results depend on the processing

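None of the 10 receptor genes had an adjusted p under 0.05 in any of 14 other settings (9 alternatives and 5 fits without 1 library each), and 7 of 10 kept their direction in all of them. Leaving out a Control library leaves 1, which is then assumed to vary like the Mutant libraries. DESeq2 called 200 genes at an adjusted p under 0.05, against 0 with edgeR, and gave Igf1r a log2 fold change of −0.94 with an adjusted p of 1.06e-05. Pathway genes are the 114 tested genes of the lists of other RTKs, ERBB ligands, other ligands, collagens, adaptors, negative regulators and proteases. In the main fit 7 of them were lower and 8 higher at an unadjusted p under 0.05 (edgeR), against 6.75% and 5.65% of all genes. With library totals, genes higher in Mutant at an unadjusted p under 0.05 numbered 1343, receptor genes lower 0 and pathway genes higher 13. List medians in that setting were −0.0097 (other RTKs), 0.32 (other ligands), 0.043 (adaptors) and 0.046 (negative regulators). A stricter filter gave other RTKs −0.049 and ERBB ligands −0.036. DESeq2 also called Mertk (adjusted p = 0.0115). Levels per kilobase of the longest transcript were 42.1 for Axl, 25.3 for Ddr1, 6.64 for Ntrk2 and 3.28 for Kit.

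The replicate numbers are shared by Control and Mutant titles, but no label ties a number to a litter or batch. Deviations of same-numbered libraries correlated at 0.21 and 0.12, over 2 pairs only. The deviations of Control replicate 1 mirror those of Control replicate 2, so these values are not independent. Control replicate 2 and Mutant replicate 3, which differ in number, also correlated at 0.12. With the replicate block, 136 genes had an adjusted p under 0.05 and 0 receptor genes were lower at an unadjusted p under 0.05. Mutant replicate 3 has no Control of its number, so it adds nothing to the genotype difference of that fit, which rests on 2 Control and 2 Mutant libraries. In that block fit Igf1r had a log2 fold change of −1.04 and Met of −0.012, and list medians were 0.0035 (other RTKs), −0.30 (ERBB ligands), 0.17 (other ligands) and 0.062 (proteases).

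Leaving out 1 library at a time, genes with an adjusted p under 0.05 ran from 0 to 45. At an unadjusted p under 0.05, genes lower in Mutant ran from 252 to 1760, genes higher from 181 to 1423, receptor genes lower from 0 to 2, receptor genes higher from 0 to 2, pathway genes lower from 2 to 12 and pathway genes higher from 0 to 16. The criterion held for 227 to 1696 genes and for 0 to 1 receptor genes (Egfr without Control replicate 2, Kit without Mutant replicate 2). Log2 fold changes ran from −0.59 to 0.026 for Egfr, −0.014 to 0.34 for Met and −0.91 to 0.0014 for Kit. List medians ran from −0.16 to 0.0045 (other RTKs), −0.082 to 0.31 (ERBB ligands), 0.098 to 0.35 (other ligands), −0.22 to −0.052 (collagens), −0.043 to 0.019 (adaptors), −0.072 to 0.0046 (negative regulators) and −0.085 to 0.098 (proteases). The cause of these shifts was not tested.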

Other observations

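For each of the 10 genes the 2 genes with the most similar pattern were taken among all genes tested, by the root mean square difference of centered log2 CPM over the 5 libraries. Similarity over 5 libraries is a description only. The closest were Ywhag and Cep57 for Ddr1 (0.011 and 0.012), Rrp1 and Ipo11 for Erbb2 (0.016 and 0.019), Mkks and Lmo4 for Axl (0.018 and 0.025), Fry and Thap3 for Ror1 (0.019 and 0.021) and Pogk and Arel1 for Ddr2 (0.023 and 0.025). Next came Brdt and Rassf2 for Ntrk2 (0.034 and 0.035), Haus4 and Tmem221 for Egfr (0.039 and 0.040), Pvt1 and Ces1d for Met (0.043 and 0.047), Hid1 and Tacr1 for Kit (0.086 and 0.10) and Slc6a2 and Rps4l for Erbb3 (0.10 and 0.10). None of these genes is an RTK.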
